A study of Mus musculus with 8 samples.

Results

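The Zbtb genes are the mouse genes whose symbols follow the pattern Zbtb and a number. They were selected by symbol, as the protein-coding genes of that pattern with a total of 40 or more read pairs over the 8 libraries, and 40 of 41 such genes met the minimum, among 19809 genes that did so in all. The rule itself uses no measured difference, but the family was taken up with earlier results of these data known and the rule names Zbtb40. Zbtb4, Zbtb22 and Zbtb40 also stand in gene lists that the study made from animals including these, so that their direction is not independent evidence. The libraries came from wild type fetal brains at E15.5, 1 library per brain, of the strain C57BL/6 (C57BL/6Slac in the study's methods). The labels give the tissue as brain and the methods as whole brain, while the study's sample table reads half_whole_brain, so how much of each brain was taken is not settled here. The 4 stress brains were from a dam exposed to chronic unpredictable mild stress (CUMS), a varying series of mild stressors applied to the pregnant female, between E5.5 and E14.5, and the 4 control brains were from an unexposed dam. Each group held 2 females and 2 males. All brains of a group came from 1 litter, so the exposure and the litter cannot be told apart, and the p-values below describe variation among littermates.

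Most Zbtb proteins pair a BTB domain, through which they dimerise and recruit corepressors of the NCoR and BCOR type and histone deacetylases, with C2H2 zinc fingers that bind DNA. Most act as repressors of transcription, and some bind methylated CpG sites or telomere repeats. In the fetal brain the family is best known for Zbtb18, a repressor needed for cortical neurons to form and migrate, and Zbtb20, which patterns the hippocampus and acts in cortical progenitors. Zbtb8os is the exception by name: it lies opposite Zbtb8a and encodes archease, a cofactor of the tRNA ligase complex, with neither BTB domain nor zinc finger.

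Depth was similar in all brains, at 25320109 to 29105710 counted read pairs per library, and the Zbtb genes took 0.176% to 0.184% of them. The neuron marker genes summed to 7181 to 7651 CPM (counts scaled to library size) in every library, all of which are labelled as brain. A pair of stress libraries stood apart in the summed markers of tissue at the edge of the brain. Stress female 34 held 76.9 CPM of choroid plexus markers against 37.4 to 52.3 in the others, and stress male 28 held 63.2 CPM of meninges and mesenchyme markers against 16.0 to 31.9.

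The promoters of 3 members called below are shown as examples of the CpG-rich windows common in the family. RefSeq windows (GRCm38.p6, 300 bases each, most of it upstream of the start) matched 35 of the 40 members with 48 windows (not Zbtb10, Zbtb16, Zbtb40, Zbtb48 and Zbtb7c). The median member window held 24.5 CpG sites against 7.0 over all 32851 windows, and its GC content was 63.0% against 52.7%. The 32851 windows were not limited by gene type or read count, as the members were, so the 2 sets are unlike. The spread was wide, from 1 to 56 sites per window, and the window of Zbtb20, which was also called, held 3 sites (43.3% GC). Zbtb4, which fell, and Zbtb22, which rose, each held 22 sites, and Zbtb25, which rose, has 2 windows with 51 and 44, of which the second is shown. The windows are chr11:69765662-69765961 on the plus strand for Zbtb4, chr17:33915926-33916225 on the plus strand for Zbtb22 and chr12:76369511-76369810 on the minus strand for Zbtb25, written 5′ to 3′ with CpG sites in capitals.
Zbtb4: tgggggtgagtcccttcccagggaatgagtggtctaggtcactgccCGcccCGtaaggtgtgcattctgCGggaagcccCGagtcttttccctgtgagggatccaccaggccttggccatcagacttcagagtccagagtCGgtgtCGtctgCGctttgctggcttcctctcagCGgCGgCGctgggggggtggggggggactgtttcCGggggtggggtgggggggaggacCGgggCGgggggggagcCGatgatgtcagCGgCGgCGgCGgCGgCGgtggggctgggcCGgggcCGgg
Zbtb22: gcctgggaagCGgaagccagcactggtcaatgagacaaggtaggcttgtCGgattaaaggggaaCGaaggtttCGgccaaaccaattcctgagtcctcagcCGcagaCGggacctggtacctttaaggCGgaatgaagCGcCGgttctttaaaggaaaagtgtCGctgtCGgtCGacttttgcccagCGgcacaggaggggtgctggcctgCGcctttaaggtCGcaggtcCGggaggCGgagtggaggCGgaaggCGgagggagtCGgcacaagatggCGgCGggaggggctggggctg
Zbtb25: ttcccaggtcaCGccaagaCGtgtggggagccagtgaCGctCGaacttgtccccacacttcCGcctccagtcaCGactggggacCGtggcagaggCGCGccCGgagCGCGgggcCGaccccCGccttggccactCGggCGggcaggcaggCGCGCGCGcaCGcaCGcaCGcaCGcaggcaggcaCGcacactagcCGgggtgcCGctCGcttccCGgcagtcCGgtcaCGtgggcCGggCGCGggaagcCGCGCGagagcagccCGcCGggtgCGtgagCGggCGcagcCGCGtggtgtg
Motifs were searched as exact letters on both strands. The CCAAT box was found in 13 of 35 members (37.1%) and in 41.1% of all genes with a window, and the window of Zbtb22 holds it. The E-box CACGTG, which reads the same on both strands, was found in 5 members (14.3%) against 8.09%, among them Zbtb25. TTTGAA, the cell cycle genes homology region (CHR) element of genes expressed in dividing cells, was found in 4 members (11.4%) against 20.2%. The Kaiso motif TCCTGCNA, known from work on Zbtb33, was found in 2 members, Zbtb18 and Zbtb37, and in 5.71% of members and of all genes alike. These matches are descriptions and no factor binding was measured.

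Levels of the genes were compared with one another per kilobase of exon, in TPM computed from the counts. Zbtb18 was the most abundant member at 274 TPM over all brains, and it held 22.9% of the family's summed TPM. Zbtb12, whose role in brain is not assigned here, followed at 170 TPM, and Zbtb33 (Kaiso), a repressor that binds methylated CpG, came next at 53.8 TPM. The top 3 genes together held 41.7%. Below them the levels closed up, with Zbtb5, Zbtb22, Zbtb17 and Zbtb41 between 47.9 and 51.0 TPM, and neighbours in this stretch differed by less than their SDs over the control brains. The median member stood at 15.4 TPM and 30 members reached 10 TPM. At the low end were Zbtb16 at 4.59, Zbtb42 at 1.79, Zbtb7b (ThPOK, which directs helper T cells) at 1.57 and Zbtb32, a gene of lymphocytes, at 0.934 TPM. Zbtb20 has 30730 bases of merged exons, the most of any member, so its 21.4 TPM understates it if the brain uses shorter transcripts; in counts it was second only to Zbtb18. The sum over the family did not separate the groups, at 1762 to 1839 CPM in control and 1779 to 1798 CPM in stress brains.

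**Figure D1:**
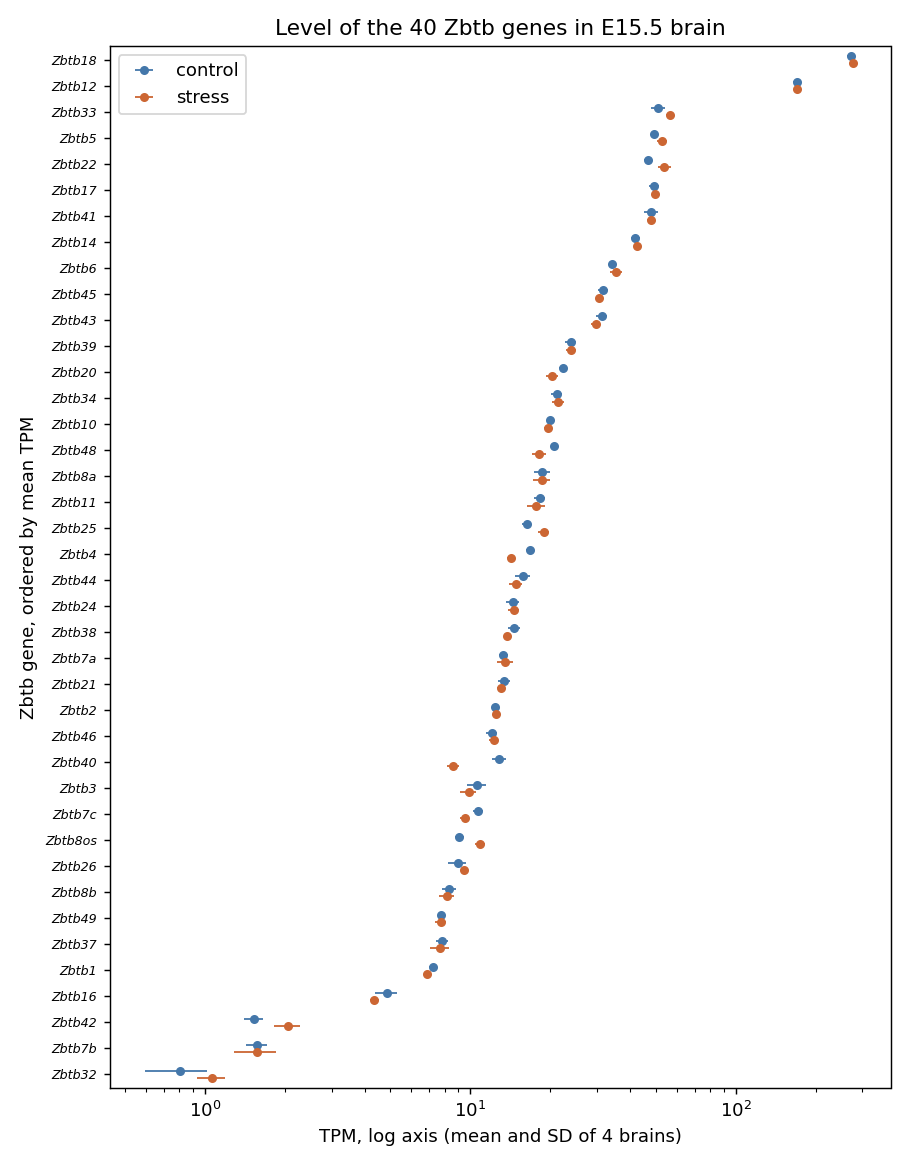
Level of each of the 40 Zbtb genes in TPM on a log axis, with points for the mean and bars for the SD of 4 control (blue) and 4 stress (orange) brains. Zbtb18 (274 TPM) and Zbtb12 (170 TPM) stand above the rest, and control and stress points overlap for most genes.

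Stress and control brains were compared to ask which members of the family differ after prenatal stress. In this comparison 4 members rose (Zbtb22, Zbtb8os, Zbtb33 and Zbtb25), 4 fell (Zbtb40, Zbtb4, Zbtb20 and Zbtb48) and 32 were not called by edgeR's quasi-likelihood test at an adjusted p under 0.05 over all genes. The 8 called members are 20% of 40, where 11.9% of all genes tested were called (5.49% higher, 6.41% lower). Among the 15305 protein-coding genes tested, the type to which all members belong, 991 were higher and 1228 lower, larger shares than over all genes. The libraries of the groups did not overlap for 11 members (27.5%), against 15.2% of all genes (7.46% with all stress libraries higher, 7.71% with all lower). Of the 15305 protein-coding genes, the groups did not overlap for 2713, again a larger share than over all genes. All but 1 member averaged 1 CPM or more, while 4560 of the 19809 genes averaged less. The shares over all genes therefore come from a different range of levels. The median log2 fold change (Log2FC, stress over control) was -0.0047 over the members and 0.0016 over all genes, and its median size was 0.048 against 0.091. Over the protein-coding genes the median size was 0.076, and sizes were not compared at matched levels. In bulk brain RNA, fewer cells of a type and less RNA per cell cannot be told apart.

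**Figure D2:**
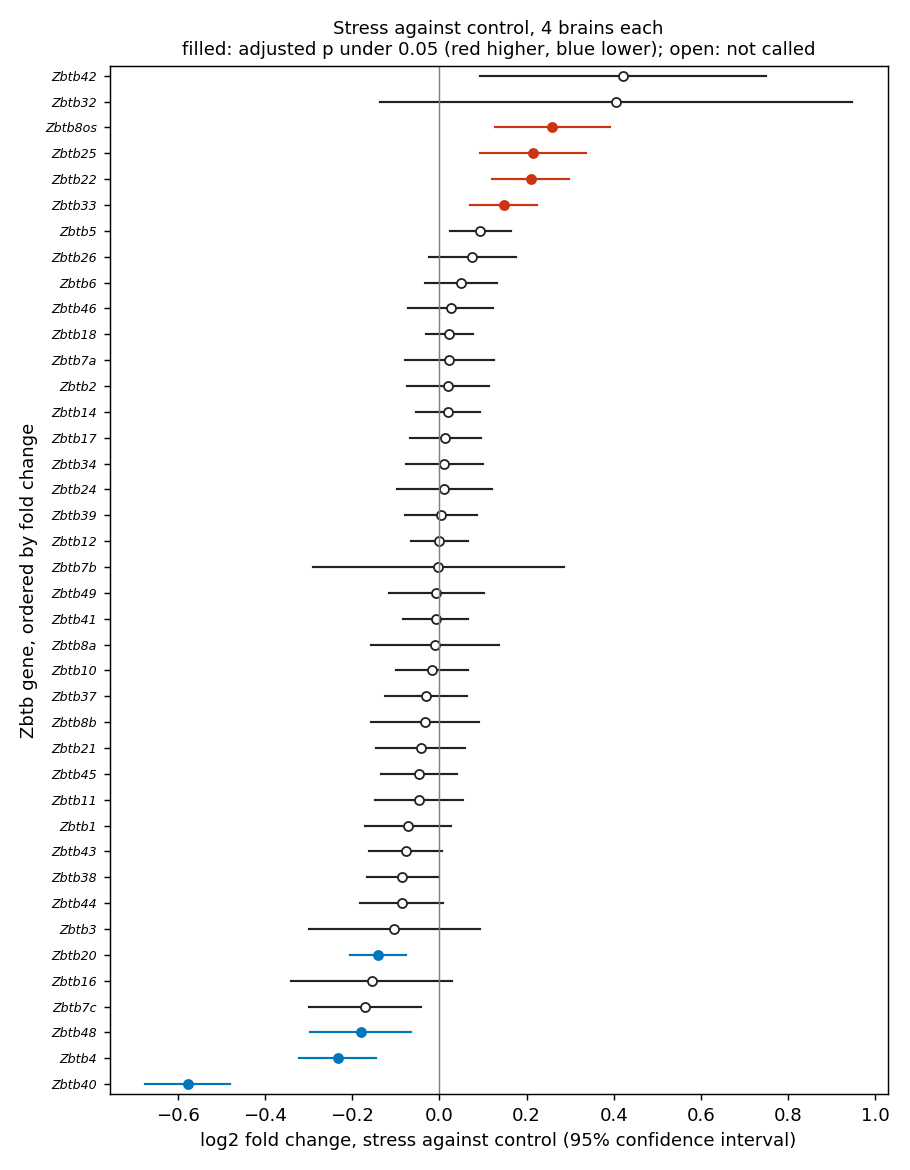
Log2FC of stress against control for the 40 Zbtb genes with 95% confidence intervals, ordered by size (filled points called, red higher and blue lower, open points not called; 4 brains per group). Zbtb40 at -0.58 lies apart from the other members, and most intervals of the uncalled genes are narrow and cross 0.

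Zbtb40 showed the largest difference of the called members. It is a zinc finger gene best known from human studies of bone density, and it was grouped here with the telomere binding members. Zbtb40 (ENSMUSG00000060862.10, chr4:136979732-137048801, minus strand, mm10) stood at 36.4 and 32.6 CPM in the control females and 37.3 and 36.1 CPM in the control males. In stress brains it stood at 23.3 and 25.2 CPM in females and 23.9 and 23.0 CPM in males. The highest stress brain lay below the lowest control brain by more than the SD of either group, and the means were 35.6 ± 2.04 and 23.9 ± 0.976 CPM (SD, n = 4 each). The Log2FC was -0.58 (SE 0.05, edgeR adjusted p = 9.98e-09), and the level decreased by 33.0%. Ordered by p, Zbtb40 was number 6 of the 19809 genes, and ordered by fold it was number 51 of the 1269 that fell. None of its exon bases are shared with another gene. Its level per kilobase went from 12.9 ± 0.773 to 8.62 ± 0.417 TPM.

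The other telomere binding members were Zbtb48 (TZAP), which binds telomere repeats and limits telomere length, and Zbtb10, which binds variant telomere repeats. Zbtb48 (ENSMUSG00000028952.12, chr4:152019774-152027671, minus strand) stood at 16.9 and 17.2 CPM in control females and 17.4 and 16.9 CPM in control males. The stress brains held 15.0 and 13.6 CPM in females and 15.6 and 16.1 CPM in males. The groups did not overlap but came close, and the spread was wider under stress (SD 1.07 against 0.213). It fell by 0.18 on the log2 scale (SE 0.06, edgeR adjusted p = 0.0352). That call was lost with DESeq2 (adjusted p = 0.121), without the sex term (0.0579) and when control 36, 37 or 30 or stress 34, 35 or 28 was left out (0.0519 to 0.115). Zbtb10 was not called, with a Log2FC of -0.02 (95% interval -0.10 to 0.07).

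The methyl-CpG binding members did not share a direction. Zbtb4 represses genes by binding methylated CpG sites and stood at 33.998 and 36.9 CPM in control females and 35.3 and 34.8 CPM in control males. In stress females it was at 29.2 and 29.7 CPM and in stress males at 31.5 and 29.5 CPM. No stress brain reached the lowest control brain. Zbtb4 (ENSMUSG00000018750.14, chr11:69765912-69784023, plus strand) fell by 0.23 on the log2 scale (SE 0.04, edgeR adjusted p = 0.000572), and its level decreased by 15.0%.

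Zbtb33 (ENSMUSG00000048047.3, chrX:38189793-38197046, plus strand) moved the other way. The control brains held 62.2 and 68.9 CPM in females and 69.2 and 70.3 CPM in males, and the stress brains 73.8 and 76.3 CPM in females and 71.9 and 77.9 CPM in males. The gap between the groups was small, from 70.3 to 71.9 CPM, and control female 36 was the lowest brain. The Log2FC was 0.15 (SE 0.04, edgeR adjusted p = 0.00882), and without control female 36 it was 0.11 with an adjusted p of 0.0569. As an X-linked gene Zbtb33 showed no called difference between the sexes (adjusted p of the sex term 0.927). Of its exon bases, 9.25% are shared with Tmem255a on the other strand, and the counting did not use strand. Zbtb38, the remaining methyl-CpG binder, had a Log2FC of -0.09 (95% interval -0.17 to -0.0034) and was not called (adjusted p = 0.181).

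Of the genes known for brain development, Zbtb20 alone was called. Zbtb20 (ENSMUSG00000022708.16, chr16:42875881-43642602, plus strand) was at 181 and 170 CPM in control females and 182 and 180 CPM in control males. The stress females were at 169 and 162 CPM and the stress males at 161 and 154 CPM. Control female 37 (169.6 CPM) and stress female 34 (169.4 CPM) almost touched, and the groups did not overlap by that margin. Zbtb20 fell by 0.14 on the log2 scale (SE 0.03, edgeR adjusted p = 0.00325), and its level decreased by 9.33%.

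Zbtb18 was measured more precisely than any other member, from 96916 read pairs. Its control values were 416, 439, 430 and 443 CPM and its stress values 441, 435, 440 and 439.8 CPM. The stress values fell within the control range, with a Log2FC of 0.02 (95% interval -0.03 to 0.08). Zbtb16 (PLZF), a gene of neural progenitors, was at 6.12, 6.84, 7.40 and 6.08 CPM in control and 5.61, 6.20, 5.88 and 6.04 CPM in stress brains. These ranges overlap and the gene was not called (Log2FC -0.16, 95% interval -0.34 to 0.03). Zbtb45, which has been linked to glial differentiation, was at 36.1, 35.4, 33.4 and 32.4 CPM in control and 33.7, 32.1, 33.0 and 33.996 CPM in stress brains, again overlapping (Log2FC -0.05, 95% interval -0.13 to 0.04).

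Among the members without an assigned role, 1 of 18 was called. Zbtb22 (ENSMUSG00000051390.10, chr17:33915904-33919325, plus strand) stood at 31.05 and 33.4 CPM in control females and 32.8 and 31.5 CPM in control males. Stress females held 39.8 and 36.3 CPM and stress males 36.8 and 35.96 CPM, all above the control brains. The Log2FC was 0.21 (SE 0.04, edgeR adjusted p = 0.00164), a rise of 15.6%. Of its exon bases, 7.33% are shared with Tapbp or Gm19412. Zbtb12, the second most abundant member, was at 85.0, 89.8, 89.5 and 91.4 CPM in control and 85.5, 90.7, 88.1 and 91.3 CPM in stress brains. Both groups spanned the same values, with a Log2FC of -0.0007 and a 95% interval of -0.07 to 0.06. Zbtb42 and Zbtb7c did not overlap between the groups yet missed the threshold. Zbtb42 had a Log2FC of 0.42 (SE 0.16, adjusted p = 0.0882) at 34 to 60 read pairs per library, and Zbtb7c one of -0.17 (SE 0.06, adjusted p = 0.0761). The other 14 genes of this class were uncalled, between -0.10 (Zbtb3) and 0.08 (Zbtb26).

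The blood and immune members gave 1 call in 6. Zbtb25, a zinc finger gene studied in T cells (ENSMUSG00000056459.14, chr12:76347782-76369602, minus strand), was at 13.8 and 12.8 CPM in control females and 12.8 and 13.3 CPM in control males. In stress brains it was at 15.4 and 15.2 CPM in females and 16.1 and 14.6 CPM in males. Every stress brain was above every control brain. The Log2FC was 0.22 (SE 0.06, edgeR adjusted p = 0.0155), and the call was lost with DESeq2 (adjusted p = 0.0641) and without control 37, control 30 or stress 28 (0.0574 to 0.0712). Zbtb1 (lymphoid development), Zbtb11 (neutrophils) and Zbtb46 (dendritic cells) had Log2FC values of -0.07, -0.05 and 0.03. The microglia markers gave no call in 8 by edgeR, and none at an unadjusted p under 0.05. The blood cell markers gave 2 higher (Hbb-y and Hba-x, embryonic globins) and 1 lower (Hbb-bs) of 8.

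Zbtb8os (ENSMUSG00000057572.15, chr4:129335695-129354547, plus strand) showed the largest rise among the called genes. The control brains held 10.6 and 10.1 CPM in females and 10.7 and 10.9 CPM in males. The stress brains held 12.8 and 12.4 CPM in females and 13.2 and 12.2 CPM in males. All stress values lay above all control values, with a Log2FC of 0.26 (SE 0.06, edgeR adjusted p = 0.0077), a rise of 19.7%.

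**Figure D3:**
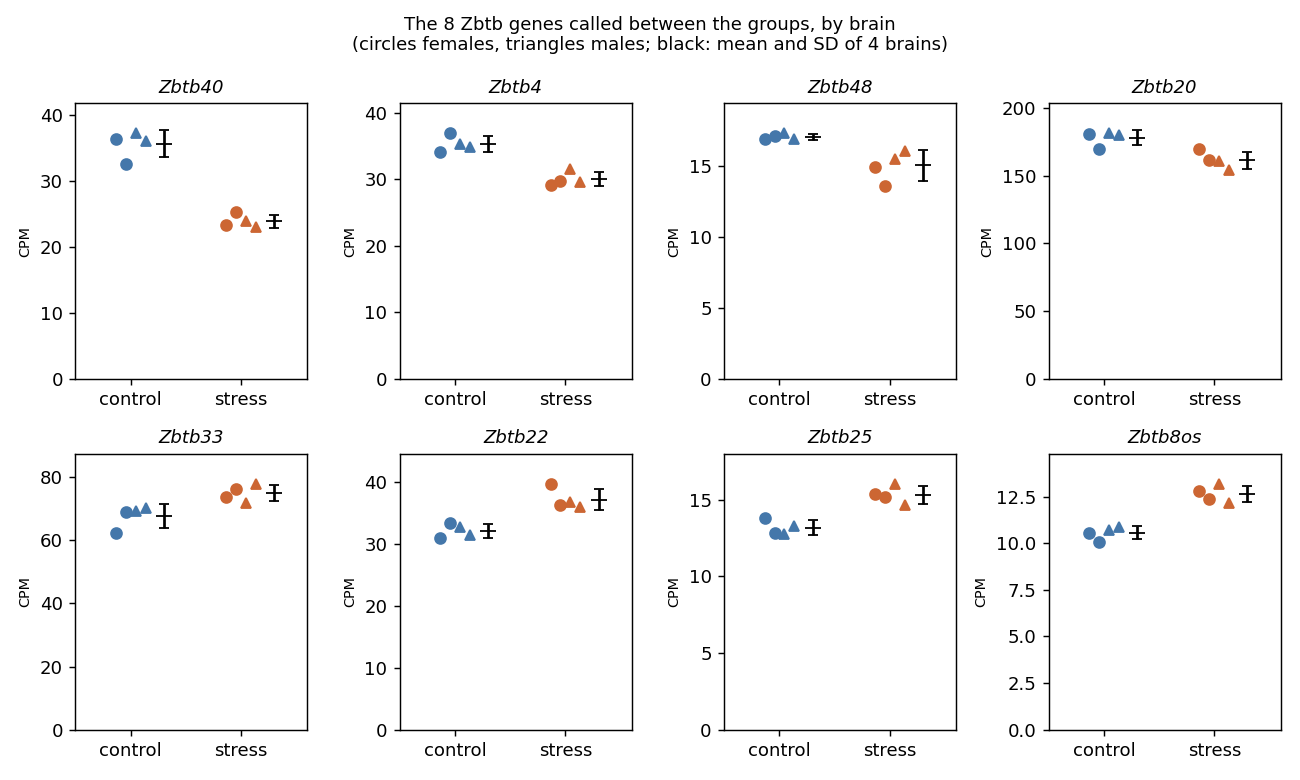
CPM of the 8 called Zbtb genes in each control (blue) and stress (orange) brain, from a zero baseline, with circles for females, triangles for males and black marks for the mean and SD of 4 brains. The groups do not overlap in any panel, and the gap is widest for Zbtb40 and narrowest for Zbtb20.

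None of the 4 members around MYC, p53 and p21 was called by edgeR or by DESeq2, and 1 of them, Zbtb5, had an unadjusted p under 0.05. These are Zbtb17 (Miz-1, the MYC partner), Zbtb7a (a repressor of the Arf tumour suppressor), Zbtb2 and Zbtb5, a repressor of the p21 gene. Zbtb5 did not overlap between the groups, with 70.5 to 74.0 CPM in control and 74.1 to 80.7 CPM in stress brains, and had a Log2FC of 0.09 (SE 0.03, adjusted p = 0.0747). The other members of this class had Log2FC values of 0.01 to 0.02. Zbtb24, mutated in a form of ICF syndrome, in which satellite repeats lose DNA methylation, had a Log2FC of 0.01 (95% interval -0.10 to 0.12). Of the 32 uncalled members, 26 had a 95% interval within 0.2 on either side of 0. The 6 whose interval reached further were Zbtb16, Zbtb3, Zbtb32, Zbtb42, Zbtb7b and Zbtb7c, with SEs on the log2 scale from 0.06 (Zbtb7c) to 0.26 (Zbtb32). At an unadjusted p under 0.05, 12 members (30%) and 24.9% of all genes passed.

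Female and male brains were also fitted apart. For the 8 called members the sign was the same in both sexes, which follows from groups that do not overlap over all brains. Among females, 2 members were higher (Zbtb22 and Zbtb33) and 2 lower (Zbtb40 and Zbtb4), where 3.24% of all genes were called (1.34% higher, 1.9% lower). Among males none was higher by edgeR, and 4 were lower (Zbtb40, Zbtb4, Zbtb20 and Zbtb44), where 7.54% of all genes were called (3.24% higher, 4.31% lower). At an unadjusted p under 0.05, 11 members (27.5%) passed in males, 6 of them higher, against 20.5% of all genes in either direction. With DESeq2 the counts were 0 higher and 1 lower in females, and 0 higher and 2 lower in males. The shares of all genes given here are from edgeR, and those of DESeq2 were not counted within each sex. Zbtb40 had a Log2FC of -0.51 (SE 0.07, edgeR adjusted p = 6.9e-05) in females and -0.65 (SE 0.06, edgeR adjusted p = 1.61e-08) in males. Zbtb20 was at -0.08 (SE 0.04, edgeR adjusted p = 0.347) in females and -0.20 (SE 0.04, edgeR adjusted p = 0.000703) in males.

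The sex by stress interaction, which tests whether the change differed between the sexes, called no member (edgeR and DESeq2), where 0.00505% of all genes were called. At an unadjusted p under 0.05 edgeR listed 4 members (10%), against 6.33% of all genes, and the smallest adjusted p was 0.598. For Zbtb44, called in males alone, the Log2FC was 0.03 (SE 0.06) in females and -0.20 (SE 0.06) in males. Its interaction of -0.23 (SE 0.08) had an unadjusted p of 0.0075 and did not pass adjustment, so the sexes were not shown to differ. The interaction of Zbtb20, also called in males and not in females, was -0.12 (SE 0.06, edgeR unadjusted p = 0.0519, adjusted p = 0.788). Female control values of Zbtb44 were 37.5 and 34.9 CPM against 39.97 and 39.7 CPM in control males, and under stress they were 36.6 and 37.5 against 35.4 and 33.9 CPM. No member was called between the sexes by edgeR in the fit over both groups, where 0.0909% of all genes were, with 2 members at an unadjusted p under 0.05 and a smallest adjusted p of 0.86.

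**Figure D4:**
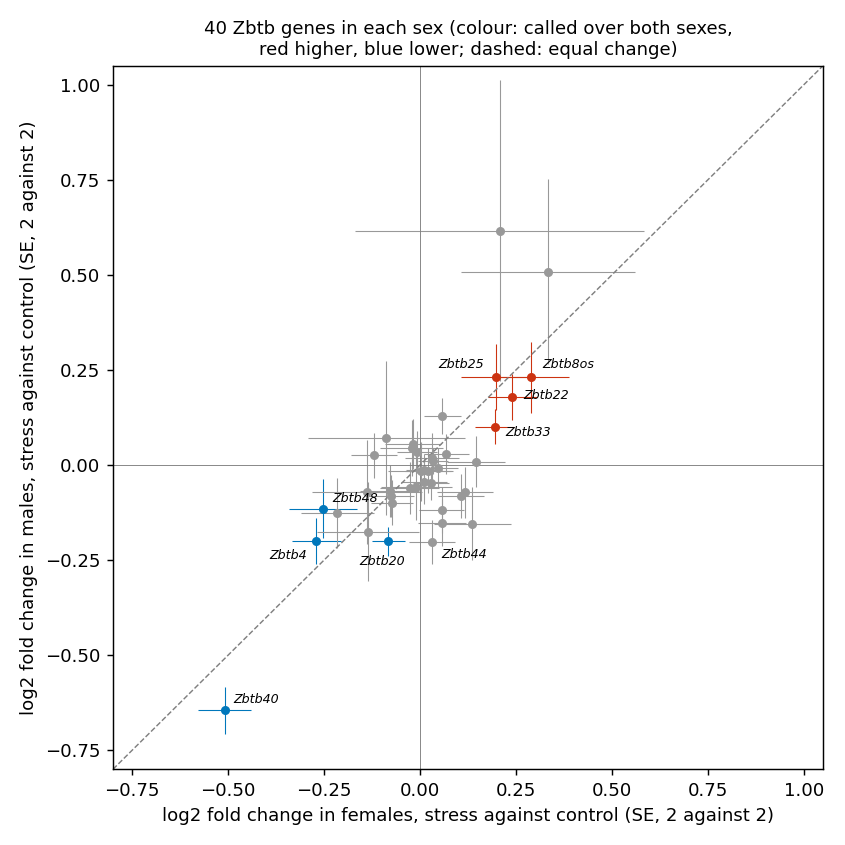
Log2FC of stress against control in females (x axis) and males (y axis) for the 40 Zbtb genes, with bars for the SE from 2 brains against 2 and colour for genes called over both sexes. Each called gene has the same sign in both sexes, with Zbtb40 at -0.51 and -0.65 and Zbtb20 at -0.08 and -0.20. Zbtb44 lies off the dashed line of equal change.

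Several members lie side by side in the genome, and 4 pairs stand within 20 kb of each other. The ratio within each pair is given as a description, chosen after the results above were known and drawn from the same libraries, so it adds no support to the calls of Zbtb25 and Zbtb8os. Zbtb25 and Zbtb1 start 663 bases apart on opposite strands of chromosome 12. The log2 ratio of Zbtb25 to Zbtb1 was -0.76, -0.76, -0.87 and -0.77 in control and -0.50, -0.47, -0.48 and -0.56 in stress brains. The group means differed by 0.29. Zbtb8os and Zbtb8a, whose ends overlap by 920 bases on opposite strands of chromosome 4, had log2 ratios of -0.05, -0.04, -0.18 and -0.05 in control and 0.16, 0.05, 0.37 and 0.16 in stress brains. Their group means differed by 0.27. Zbtb8a itself had a Log2FC of -0.01 (95% interval -0.16 to 0.14). Zbtb6 and Zbtb26, which overlap on chromosome 2, differed by -0.03 and Zbtb34 and Zbtb43 by 0.09, with overlapping groups. Reads in the shared stretches cannot be assigned to a strand here.

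**Figure D5:**
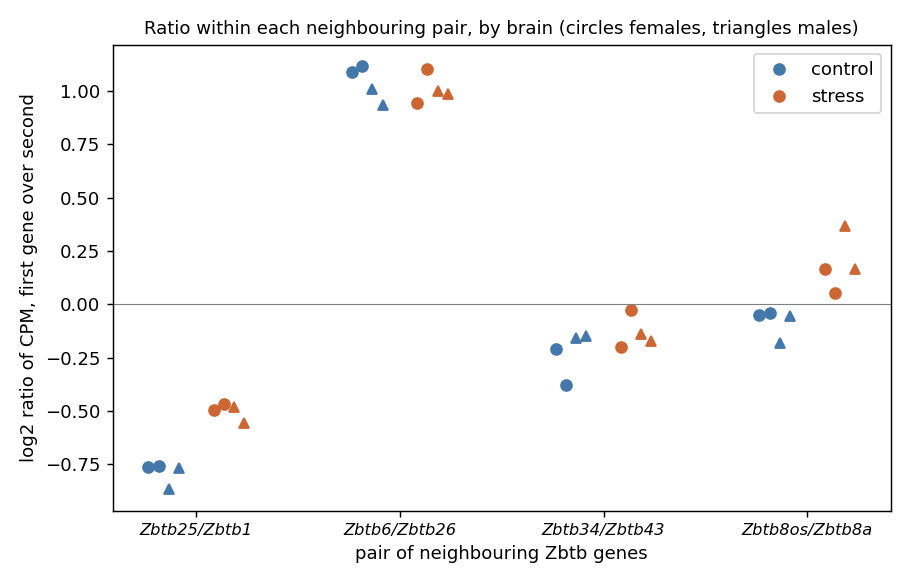
Log2 ratio of CPM within the 4 pairs of neighbouring Zbtb genes in each control (blue) and stress (orange) brain, with circles for females and triangles for males. The groups are apart for Zbtb25 over Zbtb1 and Zbtb8os over Zbtb8a, and overlap for the other pairs.

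Genes related to the family outside its symbol were counted in the same fit. Of 7 other BTB zinc finger genes, 3 fell and 1 rose, with a median Log2FC of -0.05. Bcl6, a repressor that drives cortical neurogenesis, fell from 11.02 ± 0.933 to 7.71 ± 0.784 CPM (Log2FC -0.52, SE 0.08, edgeR adjusted p = 0.000125). Hic1, a tumour suppressor gene, fell by 0.53 (SE 0.15) and Bcl6b, a paralog of Bcl6, by 0.26 (SE 0.09) on the log2 scale. Patz1 rose, with a Log2FC of 0.14 (SE 0.03).

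Of the corepressor partners of BTB domains, 5 of 16 rose and 1 fell, with a median Log2FC of 0.04 (0.0016 over all genes). Chd4, the NuRD remodeller, and Sin3a, the Sin3 scaffold, each rose with a Log2FC of 0.17 (SE 0.03), Bcor with 0.12 (SE 0.03), and Kdm1a and Hdac1 rose as well. Hdac4 fell by 0.16 (SE 0.04). Ncor1, a classic BTB corepressor, was at -0.01 and was not called. Of 11 partners in ICF syndrome and methyl-CpG reading, Hells, Uhrf1 and Cdca7 rose with Log2FC values of 0.24, 0.24 and 0.16, and Dnmt3a fell by 0.11. The median of that list was 0.0056. Hells and Cdca7 are, like Zbtb24, ICF syndrome genes, and Uhrf1 guides maintenance methylation at replication. The other 7 genes of the list were not called, among them Dnmt3b (Log2FC -0.03, SE 0.10), and neither was Zbtb24. These lists were not tested against other genes.

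Cell type markers moved in the same comparison. All 8 dividing cell markers had a positive Log2FC and 7 were called higher, with a sum of 572 to 613 CPM in control and 639 to 732 CPM in stress brains. Their median Log2FC was 0.23, and that of the 10 neuron markers was -0.09. Of the neuroblast and intermediate progenitor markers 4 of 8 were called higher, and 7 had a positive Log2FC. Of the radial glia markers 4 of 10 were called higher and none lower, but 5 had a positive and 5 a negative Log2FC (median 0.04). Neuron markers were called lower in 6 of 10, vascular markers in 3 of 8 and oligodendrocyte precursor markers in 2 of 5, and none of these lists held a higher call. In the edge tissues, 2 of 6 choroid plexus (Ttr and Otx2) and 4 of 6 meninges and mesenchyme markers were called higher. Ttr varied widely among stress brains (10.6 ± 13.2 CPM, SD). Otx2 made up most of the choroid plexus sum, at 38.0 ± 2.81 CPM in control and 43.2 ± 1.28 CPM in stress brains. The uncalled choroid plexus markers had Log2FC values of -0.20 (Folr1), -0.37 (Kl), 0.30 (Clic6) and 0.05 (Aqp1). The groups overlapped for every meninges and mesenchyme marker. No listed marker was at 0 in a whole group. The part of these shifts in the Zbtb results was not tested. Without stress female 34, which had the highest choroid plexus marker sum, 4 members were higher and 3 lower (9.61% of all genes called). Without stress male 28, which had the highest meninges and mesenchyme marker sum, 3 were higher and 3 lower (10.1% of all genes called). The counts were also 3 higher and 3 lower without control 36, 37 or 30. Zbtb40, Zbtb4, Zbtb22, Zbtb20 and Zbtb8os were called whichever brain was left out.

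Zbtb9 is the Zbtb gene that did not reach the minimum. It was listed at 0 read pairs in every library, while 98.2% of its exon bases are shared with Ggnbp1 on the same strand, which held 131 to 188 read pairs per library. Its level was therefore not measured here.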

How the data were processed

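RNA-seq libraries of 8 E15.5 brains were analysed. For each library, the authors removed adapters (Trim Galore), mapped to mm10 (TopHat2 2.1.1) and assigned fragments to GENCODE genes by their exons (featureCounts 1.6.3). What they deposited is the resulting table of raw counts, unnormalized and unfiltered, and no strand option is given, so reads of overlapping genes on opposite strands cannot be separated. Of 54752 identifiers, 54723 were matched to a symbol of a neighbouring GENCODE release. Of the 41 Zbtb genes, 3 differ in identifier version, and Zbtb9 is among them. The labels name no batch.

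Genes with 40 or more counts over the 8 libraries were normalized by TMM and fitted with edgeR 4.0.16 (glmQLFit, glmQLFTest, R 4.3.3), with sex and condition as terms, and p-values were adjusted by Benjamini-Hochberg over 19809 genes. The threshold for a call was an adjusted p of 0.05. Females, males (2 against 2) and the interaction were fitted likewise. CPM values use TMM library sizes, and TPM values the exon lengths in the count tables. The scripts were tested on simulated data. Alternatives were DESeq2 1.42.0, RLE and upper-quartile normalization, filterByExpr (minimum count 10), no filter, no sex term and each library left out. Per-library values are given for called members, the brain development genes and the 3 most abundant members. The family, its roles and the lists were chosen with earlier results of these data known, and the members within the family by symbol and total count alone. Amino acid sequences were not used here. 1 gene of the corepressor list is not reported here.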

Additional observations from a re-analysis of the deposited data

Results flagged for a closer look

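In 80 sets of 4 CPM values (each member in each group), a brain was marked where its gap to the nearest other brain exceeded 0.83 of the range of its group, which chance gives in about 1 set of 20. In the control group these were Zbtb20 in female 37 (169.6 CPM, lowest), Zbtb5 in female 37 (74.0 CPM, highest) and Zbtb7b in male 30 (2.58 CPM, highest). In the stress group they were Zbtb38 in male 28 (40.7 CPM, lowest), Zbtb18 in female 35 (435 CPM, lowest), Zbtb17 in female 35 (47.8 CPM, lowest) and Zbtb7b in male 28 (2.89 CPM, highest). Of these genes Zbtb20 alone was called between the groups.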

How the results depend on the processing

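Zbtb40, Zbtb4, Zbtb22, Zbtb20 and Zbtb8os were called in all 14 alternatives to the comparison of 4 stress with 4 control brains. With each brain left out in turn, 3 to 4 members were higher and 3 to 4 lower. Zbtb33 was called in 13 alternatives, Zbtb25 in 10 and Zbtb48 in 6. No Log2FC of a called member changed sign. With 2 brains against 2 the test mattered more: DESeq2 called 0 higher and 1 lower (Zbtb40) in females, against 2 and 2 with edgeR, and 2 lower (Zbtb40 and Zbtb20) in males, against 4. In the comparison of 4 with 4 brains, DESeq2 called 708 higher and 883 lower over all genes, against 1088 and 1269 with edgeR. Such totals were not counted for DESeq2 within each sex, and the cause of these differences was not tested. The 14 alternatives called between 7.02% and 13.8% of the genes they tested. No paired analysis was possible because the control and stress brains share no replicate number. Depth limits Zbtb32 (127 read pairs in all), Zbtb42 (360) and Zbtb7b (506), whose SEs on the log2 scale were 0.26, 0.16 and 0.14 against 0.03 for Zbtb18.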
